A study of Homo sapiens and Mus musculus with 34 samples.

Results

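The nuclear genes of oxidative phosphorylation were taken here as the gene symbols of the authors' BE2C and SHSY5Y table that name subunits of complex I (NDUFA, NDUFB, NDUFC, NDUFS and NDUFV), complex III (UQCR), complex IV (COX4 to COX8) and the ATP synthase (ATP5), with the copies, antisense genes and related factors that carry the same names. The rule found 86 such symbols, and all 86 were among the 32803 genes that could be paired with rows of the human arrays. The study profiled RNA of 4 established human neuroblastoma lines on Affymetrix arrays, 3 per line after 1 h with CYC065 and 3 per line without it. CYC065 is a small molecule that blocks cyclin-dependent kinases. The treated groups were Kelly at 1 µM, SKNAS at 1 µM in the sample labels but 5 µM in the treatment protocol, BE2C at 1 µM and SHSY5Y at 1 µM. Each had its own untreated group, which the labels call untreated and the design text DMSO. As background, MYCN is amplified in Kelly and BE2C and not in SKNAS and SHSY5Y. The design text calls the 3 samples of a group biological replicates. Kelly and SKNAS came from an earlier deposit and BE2C and SHSY5Y from a later one, so levels were compared between lines only within a deposit.

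Oxidative phosphorylation is the chain of protein complexes in the inner mitochondrial membrane that passes electrons from NADH and succinate to oxygen and uses the proton gradient so made to form ATP. Complex I takes electrons from NADH, complex III passes them to cytochrome c, complex IV reduces oxygen, and the ATP synthase turns the gradient into ATP. Most of their subunits are encoded in the nucleus, and the transcription factors NRF1 and GABP and the PGC-1 family of coactivators are known regulators of these genes.

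The 86 symbols held 68 subunits, 6 isoforms known from single tissues or conditions, 3 assembly or related factors, 6 copies or pseudogenes, 2 antisense genes and 1 read-through gene. The last 9 were counted with the rest, and counts without them are given beside. Of the 86, 66 matched 1 row of the arrays and 20 the mean of 2 rows, of which the brighter was used. The deposited values are log2 summaries, so a difference of values is a log2 change. Their level over the 24 arrays had a median of 7.79, against 5.41 for all genes, and COX7B2 and COX8C lay under the background rows in all 8 groups. Replicate arrays correlated across genes at r of 0.994 to 0.999. The median of the background rows was 3.38 to 3.49 on CYC065 and 3.29 to 3.31 on untreated Kelly arrays, and lay between 3.29 and 4.04 on all 24. All 8 adrenergic neuroblastoma markers measured had a mean level of at least 6 in untreated Kelly, BE2C and SHSY5Y cells and 7 of 8 in untreated SKNAS cells. Of 7 mesenchymal neuroblastoma markers, 2 reached that level in untreated Kelly, 5 in SKNAS, 3 in BE2C and 3 in SHSY5Y. VIM, the gene of the filament protein vimentin, stood at 6.95 in untreated Kelly and 11.56 in untreated SKNAS cells. FN1, alone of the 7, went the other way, at 7.85 in untreated Kelly and 5.97 in untreated SKNAS cells. Of 6 markers of other cells, 2 reached it in SKNAS on both kinds of array. They were the keratin gene KRT18, at 10.04 on CYC065 and 9.85 on untreated arrays, and the leukocyte gene PTPRC, at 8.74 on CYC065 and 8.65 on untreated arrays, which stood between 2.89 and 3.11 in the other lines. Their part in the results was not tested. Bulk RNA cannot tell fewer cells of a kind from less RNA per cell.

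As a group the genes were slightly higher after CYC065 in every line. Their mean level was 7.95, 7.94 and 7.97 on the CYC065 arrays of Kelly, against 7.84, 7.76 and 7.81 on its untreated arrays. In SKNAS it was 7.79, 7.81 and 7.76 with CYC065 and 7.68, 7.72 and 7.69 untreated. In BE2C it was 7.99, 7.98 and 8.02 with CYC065 and 7.92, 7.93 and 7.94 untreated. The CYC065 arrays lay above the untreated ones in each of these lines with no overlap. The SHSY5Y arrays showed the same order, at 7.82, 7.74 and 7.72 with CYC065 and 7.67, 7.65 and 7.66 untreated. The differences of the means were 0.15 in Kelly, 0.08 in SKNAS, 0.07 in BE2C and 0.10 in SHSY5Y. The median change of a gene was 0.14, 0.08, 0.06 and 0.07 in the order Kelly, SKNAS, BE2C, SHSY5Y, and that of all 32803 genes in the same order was 0.07, 0.03, 0.01 and 0.02.

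**Figure D1:**
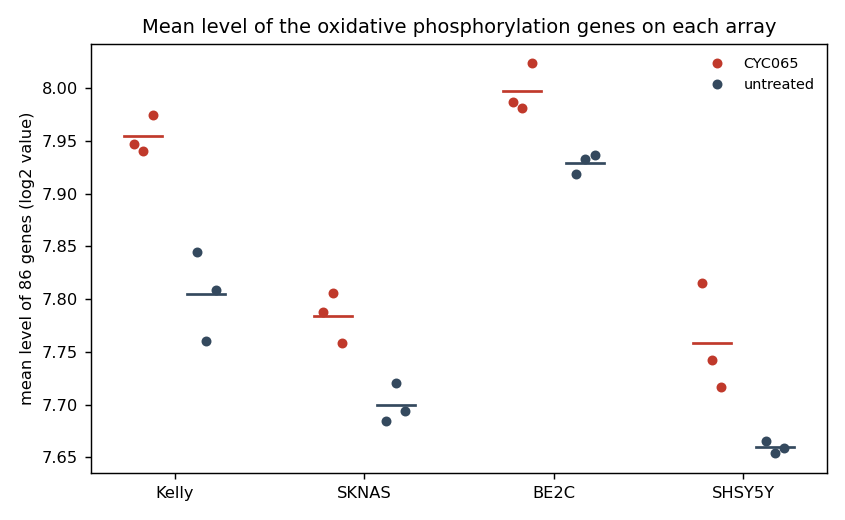
Mean log2 level of the 86 genes on each array (vertical axis) by line, with CYC065 arrays in red left of untreated arrays in dark blue; bars mark the mean of 3 arrays. In each line the 3 red points lie above the 3 dark points, with the widest gap in means in Kelly (0.15).

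On the average over the 4 lines, 42 of the 86 genes rose and none fell at a limma adjusted p under 0.05 (Benjamini-Hochberg over all genes), where 15.5% of all genes rose and 13% fell. Without the copies, antisense and read-through genes 39 of 77 rose. Among genes with a mean level of at least 5, 40 of 80 members rose and 15.6% of all such genes. The change was positive in all 4 lines for 48 of the 86, against 25% of all genes, and negative in all 4 for NDUFB2 alone, against 13.2%. The rises were small, at most 0.44, or 1.35-fold. The average over BE2C and SHSY5Y alone gave 10 of the 86. The 15.5% above does not apply to this smaller fit, so 10 cannot be set against it.

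In Kelly all CYC065 arrays lay above all untreated ones for 53 of the 86 genes and below them for 1, against 27.6% and 15.4% of all genes. In SKNAS this held for 36 above and 3 below, against 13.7% and 11%. In BE2C it held for 24 above and 2 below, against 10.9% and 12.5%, and in SHSY5Y for 28 above and 1 below, against 7.91% and 10.2%. The CYC065 arrays were higher in each of the 4 lines for 10 genes, against 0.96% of all genes. They were COX6C, NDUFA2, NDUFA10, NDUFA11, NDUFB3, NDUFS4, NDUFV1, ATP5O and the copies UQCRHL and ATP5G1P5. In at least 3 lines this held for 26 of the 86, against 3.96% of all genes and 5.14% of those with a mean level of at least 5. For no member did the CYC065 arrays lie below the untreated ones in 3 or more lines, against 7.87% of all genes.

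By line the calls were unequal. In Kelly 26 of the 86 rose and none fell, against 8.87% of all genes that rose and 11% that fell. With the copies, antisense and read-through genes left out 22 of 77 rose in Kelly. The Kelly count was 10 after median centring and 44 after quantile normalisation. The 8.87% belongs to the main fit and cannot be set against the counts of these other fits. With 1 untreated array removed it was 17 (replicate 1), 10 (replicate 2) or 14 (replicate 3). With 1 CYC065 array removed it was 14 (replicate 4), 15 (replicate 5) or 17 (replicate 6). The calls of 7 genes held without any single Kelly array: ATP5L, ATP5I, COX6C, NDUFS4, NDUFA8, NDUFA11 and UQCRHL.

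In SKNAS NDUFA1 and ATP5I rose, 2 of the 86, where 1.33% of all genes rose and 4.59% fell. Both are described with their values below. The SKNAS count was 0 without untreated replicate 1 or 3 or CYC065 replicate 5, and 1 without untreated replicate 2 or CYC065 replicate 6. In SHSY5Y COX6C alone rose, where 0.399% of all genes rose and 3.98% fell. In BE2C limma called none of the 86, where 0.674% of all genes rose and 3.06% fell. At an unadjusted p under 0.05, 13 members were higher in BE2C and none lower. In BE2C leaving out dim genes or letting the variance follow the level called 4 of them each, and a spread shared over all 24 arrays called 2. The authors' deposited table holds no member at an adjusted p under 0.05 in either BE2C or SHSY5Y, and 11 in BE2C and 9 in SHSY5Y at an unadjusted p under 0.05.

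**Figure D2:**
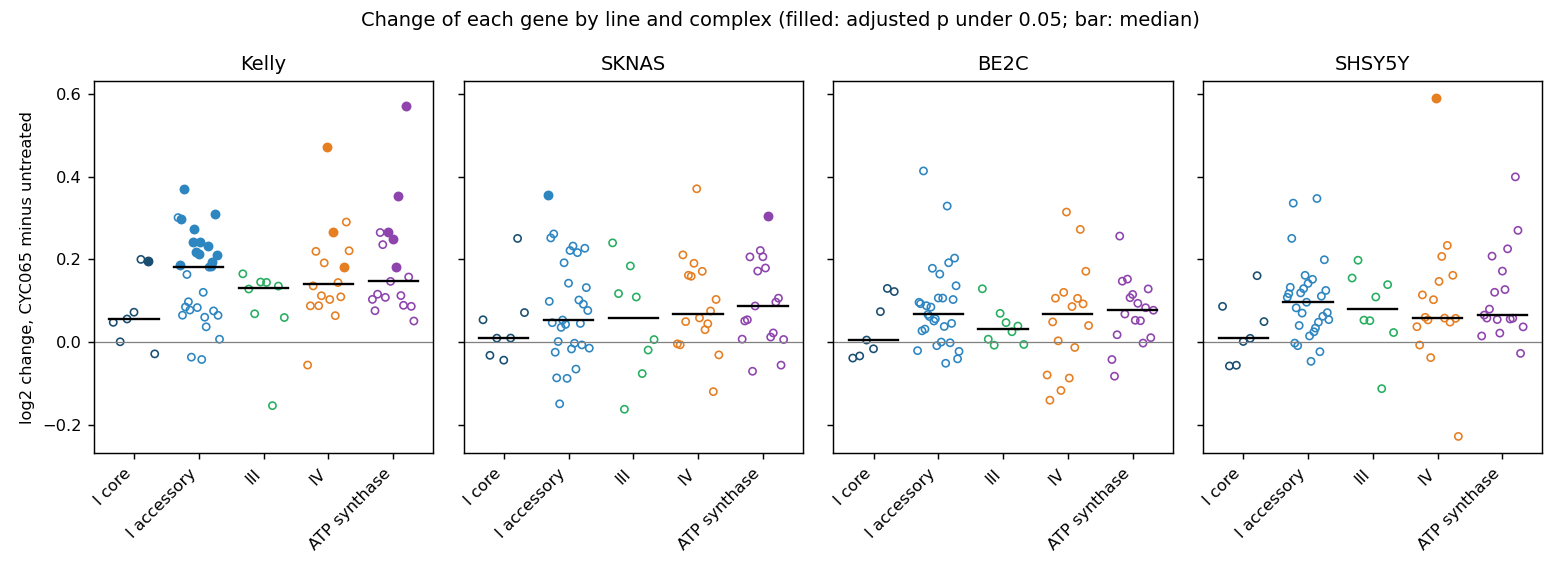
Log2 change, CYC065 minus untreated (vertical axis), of 77 genes by complex (horizontal axis) in each line, leaving out copies, antisense and read-through genes; filled points had a limma adjusted p under 0.05 and bars mark medians. Most points lie above 0, filled points are frequent in Kelly (22), and the bar of the complex I core lies nearest 0 in Kelly (0.06).

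The promoters of 4 genes are shown because of how those genes behave below: ATP5I was called in 2 lines, NDUFS4 was higher in all 4, NDUFA6 differed most between untreated BE2C and SHSY5Y, and TFB2M is a regulator that fell. Each is the RefSeq window of 250 bases before to 50 after the start of the gene on GRCh38.p14, written 5′ to 3′ on the strand of the gene. Windows were searched on both strands for an NRF1 motif (GCATGCG), an ETS motif as bound by GABP (CCGGAAG), a YY1 motif (AAGATGG), an SP1 motif (GGGCGGG) and a TATA box (TATAAA). Capitals mark matches on either strand, and an NRF1 match on both strands overlaps itself in 1 run of capitals.
ATP5I (chr4:674227-674526, minus strand): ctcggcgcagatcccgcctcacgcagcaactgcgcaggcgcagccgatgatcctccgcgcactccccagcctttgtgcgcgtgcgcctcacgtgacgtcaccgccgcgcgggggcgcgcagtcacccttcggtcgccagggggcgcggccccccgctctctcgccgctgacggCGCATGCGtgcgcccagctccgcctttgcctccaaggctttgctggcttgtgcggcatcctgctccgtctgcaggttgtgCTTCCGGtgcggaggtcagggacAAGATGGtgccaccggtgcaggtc
NDUFS4 (chr5:53560389-53560688, plus strand): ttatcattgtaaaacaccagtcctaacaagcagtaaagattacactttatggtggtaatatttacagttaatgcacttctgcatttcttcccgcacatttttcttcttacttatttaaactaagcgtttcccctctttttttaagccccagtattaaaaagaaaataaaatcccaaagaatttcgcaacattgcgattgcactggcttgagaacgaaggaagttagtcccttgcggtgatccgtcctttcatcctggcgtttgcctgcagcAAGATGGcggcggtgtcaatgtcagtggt
NDUFA6 (chr22:42090723-42091022, minus strand): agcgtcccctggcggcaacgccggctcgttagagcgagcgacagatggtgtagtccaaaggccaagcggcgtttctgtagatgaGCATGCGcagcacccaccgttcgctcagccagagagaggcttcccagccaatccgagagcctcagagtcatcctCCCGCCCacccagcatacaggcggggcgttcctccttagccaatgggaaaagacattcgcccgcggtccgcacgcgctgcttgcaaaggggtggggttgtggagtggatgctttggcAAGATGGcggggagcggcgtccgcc
TFB2M (chr1:246566212-246566511, minus strand): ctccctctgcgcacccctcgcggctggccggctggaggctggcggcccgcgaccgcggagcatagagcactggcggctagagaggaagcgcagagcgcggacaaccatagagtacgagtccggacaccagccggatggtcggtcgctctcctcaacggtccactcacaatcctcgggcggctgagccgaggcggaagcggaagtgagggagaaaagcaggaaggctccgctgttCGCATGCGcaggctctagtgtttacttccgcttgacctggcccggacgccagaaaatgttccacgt
The ATP5I window, under its current name ATP5ME, holds NRF1, ETS and YY1 matches. The NDUFS4 window holds a YY1 match just after the start site, the NDUFA6 window NRF1, SP1 and YY1 matches, and the TFB2M window an NRF1 match. These windows are examples, and genes of like behaviour differ. Among others apart in every line, the ATP5O window holds a YY1 match and NDUFA2 SP1 and TATA box matches. The NDUFA10 and NDUFB3 windows hold only SP1 matches, and those of NDUFV1 and NDUFA11 none. PPRC1 and COA7, which also fell, have no NRF1 match.

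Windows were at hand for 67 of the 86 members, of which 64 are protein genes with 78 windows. The NRF1 motif was in 16.7% of these 78 windows, against 4.63% of 22199 windows of coding genes. The YY1 motif was in 23.1% against 6.04%, and the ETS motif in 23.1% against 12.8%. The SP1 motif was in 30.8% against 42.3%, and the TATA box in 8.97% against 9.47%. These are letters in a window and not measured binding, and several genes have more than 1 window.

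Complex I was measured through 7 core subunits, which carry the electron path, and 29 accessory genes. The 29 were grouped by symbol and include NDUFA4 and NDUFA4L2, whose current symbols are COXFA4 and COXFA4L2. On average 1 of 7 core and 16 of 29 accessory genes rose, with median changes of 0.04 and 0.10, and in Kelly 1 of 7 and 13 of 29. The core gene that rose was NDUFV1, the subunit that binds NADH. Its levels in Kelly were 9.24, 9.23 and 9.28 with CYC065 and 9.137, 8.999 and 9.031 untreated. The groups did not overlap there or in the other lines, and the average change was 0.18 ± 0.03 (moderated SE here and below, 3 arrays a group, limma adjusted p = 1.75e-05). The Kelly change of 0.20 ± 0.05 had an adjusted p of 0.0386, and up to 0.122 without single arrays. NDUFS1, the large iron-sulfur subunit of the core, changed by 0.04 ± 0.03 on average, with an adjusted p of 0.443.

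NDUFA2, a small accessory subunit of the matrix arm, had the second largest average change among the 86. It stood at 7.51, 7.36 and 7.60 with CYC065 and 7.159, 7.001 and 7.204 untreated in Kelly. In BE2C it stood at 7.54, 7.62 and 7.59 with CYC065 and 6.91, 7.23 and 7.36 untreated. In both lines all CYC065 arrays were higher, and the spread was wide on untreated BE2C arrays. The change was 0.34 ± 0.05 on average (adjusted p = 1.34e-05), 0.37 ± 0.08 in Kelly (adjusted p = 0.016, and 0.0538 without untreated replicate 2) and 0.41 ± 0.11 in BE2C (adjusted p = 0.117). NDUFA2 matched 2 rows of nearly equal mean level, 7.32 for the row used and 7.31 for the other. That other row changed by 0.28 in Kelly, 0.18 in SKNAS, 0.19 in BE2C and 0.11 in SHSY5Y. NDUFS4, an accessory subunit whose loss is a cause of Leigh syndrome, read 6.98, 6.90 and 6.92 with CYC065 and 6.64, 6.64 and 6.60 untreated in Kelly. It was higher in every line, by 0.31 ± 0.05 in Kelly (adjusted p = 0.00334), 0.23 ± 0.08 in SKNAS (adjusted p = 0.173), 0.20 ± 0.05 in BE2C (adjusted p = 0.109) and 0.20 ± 0.09 in SHSY5Y (adjusted p = 0.394). Its arrays did not overlap between treatments in any line.

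NDUFB6, of the membrane arm, rose by 0.28 ± 0.06 on average (adjusted p = 0.00057). NDUFA1, a small membrane subunit, was called in SKNAS, at 7.91, 7.99 and 8.06 with CYC065 and 7.52, 7.71 and 7.66 untreated. In BE2C its groups overlapped, at 7.26, 7.23 and 7.40 with CYC065 and 7.26, 7.30 and 7.39 untreated. The SKNAS change of NDUFA1 was 0.36 ± 0.07 (adjusted p = 0.0219), and the adjusted p was between 0.0525 and 0.0803 without SKNAS untreated replicate 1 or 3 or CYC065 replicate 5 or 6. The BE2C change was -0.02 ± 0.07. NDUFB2 matched 2 rows that disagree: the brighter, used here, changed by -0.04 in Kelly, while the dimmer changed by -1.32 in Kelly, -0.71 in SKNAS, -0.51 in BE2C and -0.24 in SHSY5Y. The brighter row averages 5.07 and the dimmer 3.62, near the background rows, and no other member had a change beyond 1 in either row.

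Complex III rose on average in 4 of 8 genes, against 15.5% of all genes, and in no single line passed the test outside the copies. UQCRC1 and UQCRC2, its core proteins, changed by 0.11 ± 0.03 (adjusted p = 0.00228) and 0.10 ± 0.03 (adjusted p = 0.0141) on average. UQCRFS1, the Rieske iron-sulfur protein, had the lowest average change of the 86, -0.08 ± 0.04 with an adjusted p of 0.196. In Kelly its CYC065 arrays, at 7.38, 7.16 and 7.37, lay just below the untreated ones at 7.53, 7.45 and 7.39. UQCRB, a small subunit, changed by -0.01 ± 0.04. UQCRHL, a near copy of the hinge protein gene UQCRH, rose by 0.31 ± 0.05 in Kelly (adjusted p = 0.00579), while UQCRH changed by 0.13 with an adjusted p of 0.165. Probes of such copies may take RNA from either gene, so the values of UQCRHL, ATP5G1P5 and ATP5EP2 cannot be assigned to 1 locus.

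COX6C, a small nuclear subunit of complex IV, had the largest average change among the 86. It read 9.01, 8.86 and 8.84 with CYC065 in Kelly, against 8.46, 8.52 and 8.30 untreated. In SKNAS it read 8.54, 8.91 and 8.67 with CYC065, against 8.27, 8.43 and 8.30 untreated. In BE2C it read 8.25, 8.38 and 8.46 with CYC065, against 8.17, 7.94 and 8.03 untreated. All CYC065 arrays were higher in these lines, and the gap was narrowest in BE2C. In SHSY5Y it read 7.96, 7.85 and 7.82 with CYC065 and 7.37, 7.38 and 7.10 untreated, again without overlap. The change was 0.44 ± 0.05 on average (1.35-fold, adjusted p = 2.7e-07). By line it was 0.47 ± 0.07 in Kelly (adjusted p = 0.00384), 0.37 ± 0.10 in SKNAS (adjusted p = 0.0688), 0.31 ± 0.08 in BE2C (adjusted p = 0.101) and 0.59 ± 0.10 in SHSY5Y (adjusted p = 0.00794). Both calls held without any single array of their line. The second, dimmer row of COX6C changed by 0.22 in Kelly, -0.09 in SKNAS, 0.15 in BE2C and 0.11 in SHSY5Y, and with it neither line was called (adjusted p = 0.0599 in Kelly and 0.702 in SHSY5Y). In the authors' deposited table, whose COX6C value is the mean of both rows, the SHSY5Y change is 0.35 with an adjusted p of 0.415.

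Of the 16 complex IV genes 8 rose on average and 3 in Kelly, with median changes of 0.09 and 0.14. The shares of all genes that rose were 15.5% and 8.87%. COX5A changed by 0.13 ± 0.03 on average (adjusted p = 0.00301). COX4I1, the regulatory subunit used in most tissues, changed by -0.03 ± 0.03 with an adjusted p of 0.52. In BE2C its CYC065 arrays, at 10.06, 10.06 and 9.98, lay below the untreated ones at 10.08, 10.15 and 10.11. COX7A2L, a factor of supercomplex assembly, changed by 0.03 ± 0.03 (adjusted p = 0.369). None of the 6 isoforms of other tissues or conditions was called in a line. COX7B2 rose on average by 0.13 ± 0.03, but at levels near 3, under the background rows. COX4I2, COX6A2, COX7A1, COX8C and NDUFA4L2 had average changes between -0.02 and 0.05, with adjusted p of 0.333 or more.

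Of the 17 genes placed with the ATP synthase by symbol 10 rose on average and 5 in Kelly, with median changes of 0.12 and 0.15. Over all genes 15.5% rose on average and 8.87% in Kelly. The 17 include ATP5S and also ATP5SL, whose current symbol is DMAC2. ATP5L, subunit g of the membrane part of the synthase, had the largest change of the 86 in Kelly, at 5.71, 5.85 and 5.86 with CYC065 and 5.21, 5.15 and 5.35 untreated. In SHSY5Y it stood at 6.19, 5.88 and 5.90 with CYC065 and 5.46, 5.71 and 5.61 untreated. The groups were apart in these lines and overlapped in SKNAS and BE2C. The change was 0.57 ± 0.07 in Kelly (1.49-fold, adjusted p = 0.00111) and 0.40 ± 0.11 in SHSY5Y (adjusted p = 0.0851), against 0.10 ± 0.09 in SKNAS (adjusted p = 0.627) and 0.08 ± 0.10 in BE2C (adjusted p = 0.733). ATP5L matched 2 rows of nearly equal mean level, 5.82 for the row used and 5.81 for the other. That other row changed by 0.34 in Kelly, 0.06 in SKNAS, 0.12 in BE2C and 0.34 in SHSY5Y. The test of any difference between lines gave ATP5L an adjusted p of 0.0851.

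ATP5I, subunit e, which helps pair the synthase into dimers, stood at 8.27, 8.24 and 8.25 with CYC065 and 7.97, 7.79 and 7.95 untreated in Kelly. In SKNAS it stood at 9.58, 9.52 and 9.42 with CYC065 and 9.18, 9.16 and 9.28 untreated. The groups were apart in both lines, with changes of 0.35 ± 0.06 (adjusted p = 0.0058) and 0.30 ± 0.07 (adjusted p = 0.0335). The SKNAS call was lost without any single array other than CYC065 replicate 6, with adjusted p between 0.0593 and 0.135, and with the mean of its 2 rows (adjusted p = 0.0762). ATP5G1, ATP5G2 and ATP5G3 encode the same subunit c of the rotor ring. They rose on average by 0.16 ± 0.03, 0.12 ± 0.03 and 0.19 ± 0.03 (adjusted p = 0.000737, 0.0038 and 2.58e-05). Under other settings the adjusted p reached 0.214, 0.561 and 0.0753. Each matched 2 rows. In the order Kelly, SKNAS, BE2C, SHSY5Y the dimmer row changed by 0.03, 0.11, 0.06 and 0.06 for ATP5G1. For ATP5G2 it changed by 0.07, 0.08, 0.06 and 0.01, and for ATP5G3 by 0.21, 0.12, 0.10 and 0.10. ATP5O, the stalk protein that joins the motor to the catalytic head, rose by 0.17 ± 0.03 (adjusted p = 7.73e-05), and its arrays did not overlap in any line. The dimmer row of ATP5O changed by 0.10 in Kelly, -0.01 in SKNAS, 0.08 in BE2C and 0.03 in SHSY5Y. ATP5A1 and ATP5B, the subunits of the catalytic head, had changes of 0.02 ± 0.02 and 0.03 ± 0.02, with adjusted p of 0.523 and 0.436. ATP5J, a coupling factor of the stalk, had a change of 0.06 ± 0.03 (adjusted p = 0.133). ATP5E, the epsilon subunit, rose by 0.13 ± 0.05 (adjusted p = 0.044, up to 0.086 without single arrays).

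**Figure D3:**
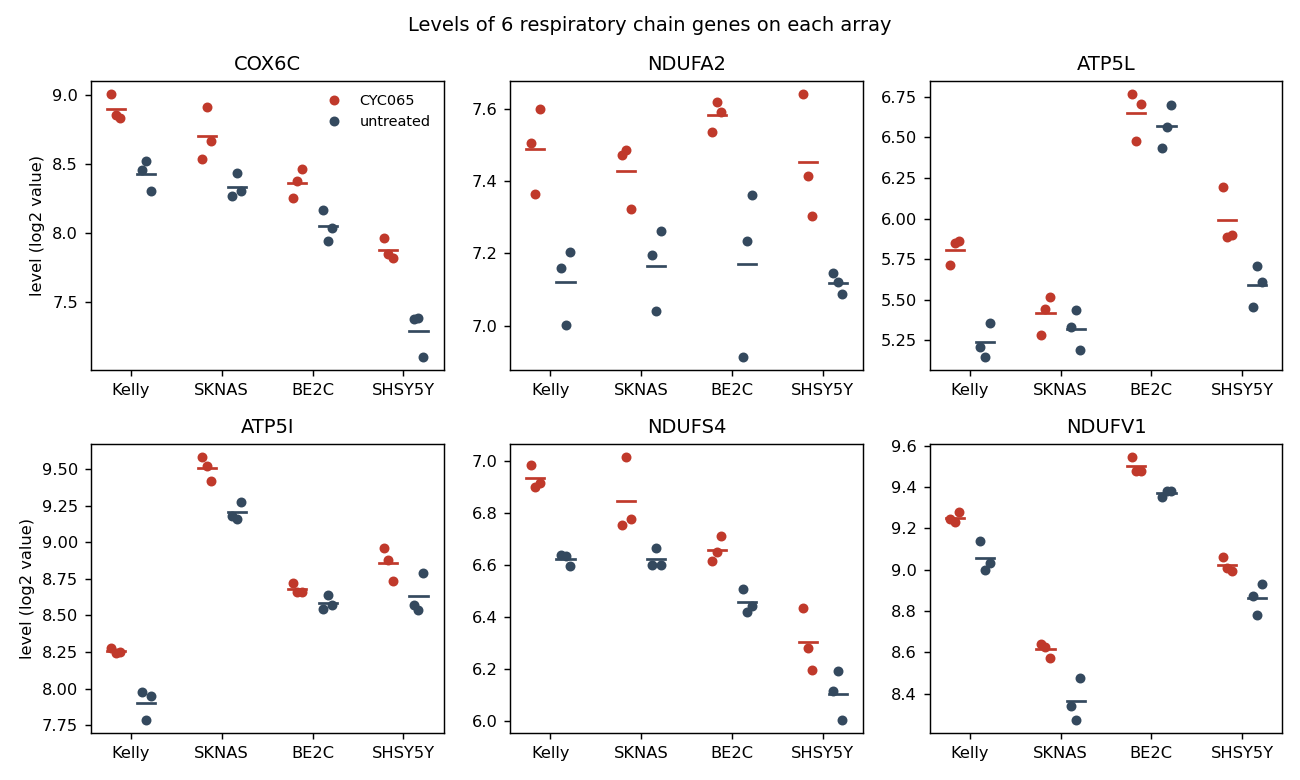
Log2 levels (vertical axes, which differ in range) of COX6C, NDUFA2, ATP5L, ATP5I, NDUFS4 and NDUFV1 on each array, by line, with CYC065 arrays in red left of untreated arrays in dark blue; bars mark means of 3 arrays. COX6C, NDUFA2, NDUFS4 and NDUFV1 show no overlap in any of the 4 lines, while ATP5L overlaps in SKNAS and BE2C and ATP5I in SHSY5Y.

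The lines were set against each other to ask whether the response differed. A limma F test of any difference between the 4 changes called none of the 86, against 5.14% of all genes. At an unadjusted p under 0.05 it gave 6, and it called 3 with array weights and 3 with dim genes left out. The change in Kelly minus that in SKNAS was called for 2 genes, both higher in Kelly, where 3.89% of all genes were called, 0.942% higher and 2.95% lower. COX7C, a small complex IV subunit, was higher with CYC065 in Kelly (7.01, 6.94 and 7.04, against 6.87, 6.79 and 6.79 untreated) and lower in SKNAS (6.99, 6.96 and 6.92, against 7.04, 7.12 and 7.07 untreated). NDUFA4, named for complex I but later placed with complex IV, read 7.08, 7.06 and 7.17 with CYC065 and 6.92, 6.93 and 6.96 untreated in Kelly. In SKNAS it read 6.33, 6.39 and 6.40 with CYC065 and 6.41, 6.54 and 6.42 untreated. Both genes thus moved apart between the lines, without overlap of arrays in either line. The differences were 0.30 ± 0.08 for COX7C (adjusted p = 0.0397) and 0.25 ± 0.07 for NDUFA4 (adjusted p = 0.0372), and neither held after median centring (adjusted p = 0.270 and 0.288). Without single arrays the adjusted p reached 0.106 for COX7C and 0.111 for NDUFA4. BE2C minus SHSY5Y called none of the 86, with 5 at an unadjusted p under 0.05, where 0.994% of all genes were called.

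The rest of the pathway was taken from a list of 72 assembly factors, electron carriers, complex II subunits and regulators, of which 67 were measured. In Kelly 6 of 67 rose and 16 fell, in SKNAS none rose and 6 fell, in BE2C none rose and 4 fell, and in SHSY5Y none rose and 10 fell. Over all genes 8.87% rose and 11% fell in Kelly, 4.59% fell in SKNAS, 3.06% in BE2C and 3.98% in SHSY5Y, and among genes with a mean level of at least 5, 18.2% fell in Kelly, 7.17% in SKNAS, 5.1% in BE2C and 6.71% in SHSY5Y. The median changes of the 67 were 0.01 in Kelly, -0.01 in SKNAS, 0.02 in BE2C and 0.02 in SHSY5Y. A list of 7 genes held 4 subunits of complex II, the cytochromes CYC1 and CYCS and NDUFAB1, an acyl carrier protein that is also an accessory subunit of complex I. Of these 7 genes 5 rose on average, against 15.5% of all genes. SDHB, the iron-sulfur subunit of complex II, rose by 0.11 (adjusted p = 0.000831), SDHC, a membrane anchor, by 0.14 (adjusted p = 0.000698) and NDUFAB1 by 0.16 (adjusted p = 0.000366). SDHA and SDHD had changes of -0.05 and -0.06 (adjusted p = 0.087 and 0.321). CYC1, cytochrome c1, and CYCS, cytochrome c, each rose by 0.10 on average (adjusted p = 0.0375 and 0.0394). SDHB and SDHC were also called in Kelly, and both calls were lost without single arrays (adjusted p up to 0.0901 and 0.124).

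Of 16 measured nuclear regulators of mitochondrial genes, 9 fell in Kelly, 3 in SKNAS, 3 in BE2C and 6 in SHSY5Y, and none rose in a line. Of all genes 11% fell in Kelly, 4.59% in SKNAS, 3.06% in BE2C and 3.98% in SHSY5Y, and of those with a mean level of at least 5, 18.2% fell in Kelly. PPRC1, a coactivator of the PGC-1 family, fell to 7.17 ± 0.03 with CYC065 in Kelly, against 8.83 ± 0.06 untreated (mean ± SD, n = 3), a change of -1.66 ± 0.05 (limma adjusted p = 5.35e-06). It changed by -0.80 ± 0.07 in SKNAS, -0.78 ± 0.07 in BE2C and -0.99 ± 0.08 in SHSY5Y, with adjusted p between 0.000136 and 0.0028 in these lines, and all 4 calls held without any single array. ESRRG, an orphan nuclear receptor, fell in every line, by 0.67 ± 0.07 (Kelly), 0.41 ± 0.08 (SKNAS), 0.57 ± 0.07 (BE2C) and 0.60 ± 0.09 (SHSY5Y). Its SKNAS call was lost without 4 of the 6 single arrays (adjusted p up to 0.0715). NRF1 also fell, by 0.77 ± 0.05 (Kelly), 0.43 ± 0.06 (BE2C) and 0.48 ± 0.08 (SHSY5Y). In SKNAS NRF1 changed by -0.26 ± 0.07 with an adjusted p of 0.0639, and without single arrays the adjusted p reached 0.0509 in BE2C and 0.0589 in SHSY5Y.

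TFB2M, a mitochondrial transcription factor whose promoter is shown above, fell by 0.82 ± 0.06 in Kelly and 0.93 ± 0.08 in SHSY5Y, and by 0.37 ± 0.07 in SKNAS, where the adjusted p reached 0.0712 without single arrays. TFAM, which packages mitochondrial DNA, PPARGC1A and PPARGC1B were called in Kelly alone, at -0.25 ± 0.05, -0.45 ± 0.05 and -0.27 ± 0.05. GABPA, the DNA-binding part of GABP, was called in none of the 4 lines, with changes between -0.02 and 0.15. GABPB1, a partner subunit of GABP, fell by 0.36 ± 0.05 in Kelly (adjusted p = 0.00169) and 0.41 ± 0.08 in SHSY5Y (adjusted p = 0.018), where the adjusted p reached 0.0973 without single arrays. CREB1, a factor activated by cyclic AMP signalling, fell by 0.72 ± 0.05 in Kelly (adjusted p = 4e-05) and 0.43 ± 0.09 in SHSY5Y (adjusted p = 0.0258, up to 0.124 without single arrays and 0.521 with its dimmer row). TMEM70, an assembly factor of the ATP synthase, fell by 0.57 ± 0.07 in Kelly (adjusted p = 0.0011) and 0.72 ± 0.11 in SHSY5Y (adjusted p = 0.00657, and 0.564 with its dimmer row).

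Of 25 measured assembly factors of complexes III and IV, 5 fell and 1 rose in Kelly, where 11% of all genes fell and 8.87% rose. Among genes with a mean level of at least 5, 18.2% fell and 9% rose in Kelly. COA7, needed for complex IV, fell by 1.01 ± 0.05 in Kelly, 0.52 ± 0.07 in SKNAS, 0.40 ± 0.06 in BE2C and 0.63 ± 0.08 in SHSY5Y. The BE2C call of COA7 was lost without 4 of the 6 single arrays (adjusted p up to 0.0769). COX19, a copper-handling factor, fell by 0.52 ± 0.07 in Kelly, by 0.68 ± 0.07 in SKNAS and 0.45 ± 0.08 in SHSY5Y, with an adjusted p of up to 0.0682 in SHSY5Y without single arrays. TACO1, a translational activator of the mitochondrial COX1 gene, fell by 0.68 ± 0.07 in Kelly and 0.56 ± 0.08 in SHSY5Y. COA5, another complex IV factor, was called in Kelly at -0.25 ± 0.07 and SKNAS at -0.32 ± 0.07, and without single arrays the adjusted p reached 0.118 and 0.148.

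**Figure D4:**
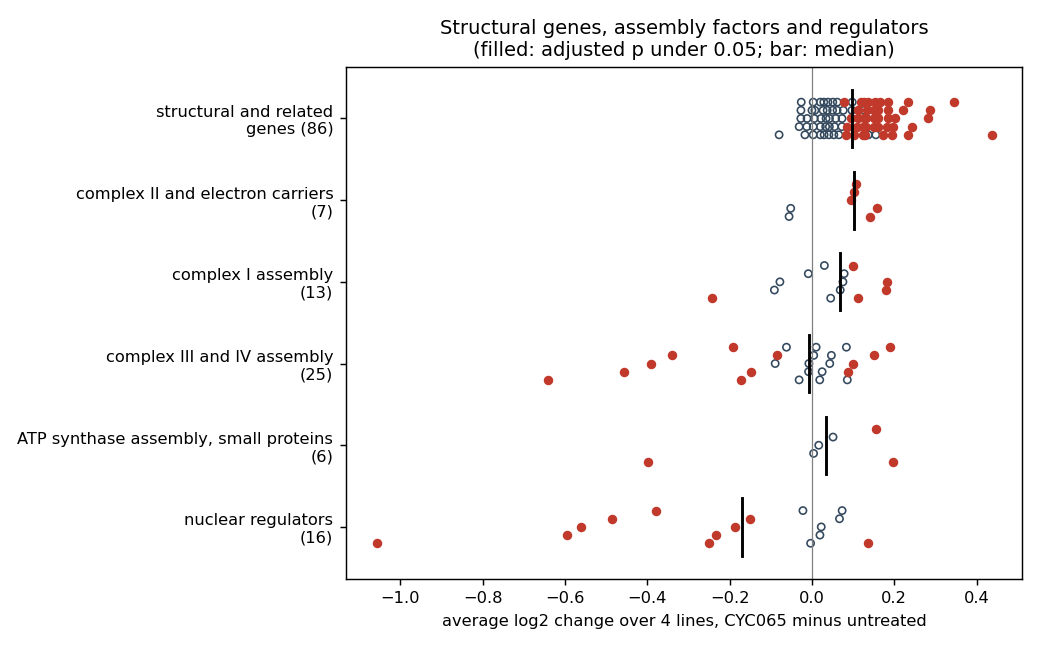
Average log2 change over the 4 lines, CYC065 minus untreated (horizontal axis), of the 86 genes and of 5 lists of other pathway genes; filled points had a limma adjusted p under 0.05 and bars mark medians. The 86 genes spread narrowly around 0.10, while the regulators have a median of -0.17 and PPRC1 at -1.06 is the lowest point.

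The median change on the average over the lines was 0.10 for the 86 genes and 0.07 for 78 cytosolic ribosomal protein genes, of which 36 rose and 1 fell. Of 73 mitochondrial ribosomal protein genes 9 rose and 20 fell, with a median of -0.01. Of 46 proteasome subunit genes 13 rose and 5 fell, with a median of 0.03. Over all genes 15.5% rose and 13% fell on the average over the lines. The lists were not tested against each other.

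Levels in untreated cells were compared within each deposit to ask how the lines differ at rest. Between Kelly and SKNAS 35 members were higher and 18 lower, against 18.2% and 18.7% of all genes. Between BE2C and SHSY5Y 50 were higher and 8 lower, against 16.3% and 14.6%. The median difference was 0.10 for Kelly minus SKNAS and 0.26 for BE2C minus SHSY5Y, where all genes gave -0.01 and -0.03. Higher in BE2C were 58.1% of members, 64.4% of mitochondrial ribosomal, 67.4% of proteasome, 65.7% of other pathway and 12.8% of cytosolic ribosomal protein genes. Higher in Kelly were 40.7%, 19.2%, 17.4%, 50.7% and 48.7% in the same order. These lists were not tested against each other. Members higher in both Kelly and BE2C numbered 24 of 86, or 27.9%, against 5.82% of all genes. COX5B and UQCRHL were lower in both, against 4.73% of all genes, and the UQCRHL difference for Kelly had an adjusted p of up to 0.0987 without single arrays. Another 10 were lower in Kelly and higher in BE2C (5.21% of all genes), and 3 the reverse (4.96%). Among genes with a mean level of at least 5, 27.3% were higher and 26.6% lower in Kelly, and 25.6% higher and 21.5% lower in BE2C. Of the calls, 39 of 53 and 50 of 58 held without any single untreated array. The neuroblastoma markers also differed between Kelly and SKNAS: all 8 adrenergic markers were higher in Kelly, and of the 7 mesenchymal markers 6 were lower and 1 higher. Of the 6 markers of other cells 2 were lower in Kelly. Between BE2C and SHSY5Y 1 adrenergic marker was higher and 6 lower, and of the mesenchymal markers 2 were higher and 1 lower. The part of these shifts in the member differences was not tested. Each contrast is between 2 single lines, so it cannot be told apart from any other difference between them.

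UQCR10, a small complex III subunit, showed the largest excess in Kelly, at 8.87, 8.80 and 8.90 in Kelly and 7.46, 7.49 and 7.49 in SKNAS. It was also higher in BE2C, at 8.69, 8.77 and 8.72, than in SHSY5Y, at 8.10, 8.30 and 8.04. The groups were apart in both pairs, with differences of 1.38 ± 0.07 (limma adjusted p = 8.24e-10) and 0.58 ± 0.07 (adjusted p = 1.05e-05). NDUFA6, an accessory subunit of complex I, read 8.81, 8.74 and 8.84 in BE2C and 7.09, 7.26 and 7.36 in SHSY5Y. The difference of 1.56 ± 0.07 (adjusted p = 8.65e-10) was the largest in that pair, and in Kelly minus SKNAS it was 0.70 ± 0.07 (adjusted p = 1.05e-06). ATP5F1, subunit b of the synthase stalk, was higher by 0.88 ± 0.06 in Kelly and 0.95 ± 0.06 in BE2C. UQCRC1 was higher by 0.88 ± 0.06 in Kelly and 0.22 ± 0.06 in BE2C, while NDUFA5, of the complex I matrix arm, was higher by 0.74 ± 0.06 in Kelly. NDUFV1, a catalytic subunit of complex I, was higher by 0.69 ± 0.07 in Kelly, NDUFA9, an accessory subunit of complex I, by 0.95 ± 0.06 in BE2C, and ATP5O by 0.94 ± 0.06 in BE2C. NDUFS1 was higher by 0.27 ± 0.08 in Kelly and 0.99 ± 0.08 in BE2C. The NDUFS1 difference for Kelly had an adjusted p of up to 0.0642 without single arrays.

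Other genes went the other way: 18 of the 86 were lower in Kelly, against 18.7% of all genes, and 8 in BE2C, against 14.6%. ATP5I was lower in Kelly, at 7.97, 7.79 and 7.95, than in SKNAS, at 9.18, 9.16 and 9.28. The difference was -1.30 ± 0.08 (adjusted p = 5.15e-09), and between BE2C and SHSY5Y it was -0.05 ± 0.08 (adjusted p = 0.703). COX5B, a complex IV subunit, was lower by 0.79 ± 0.07 in Kelly and 0.31 ± 0.07 in BE2C. The complex I accessory genes NDUFB9, NDUFC1 and NDUFB10 were lower in Kelly by 0.64, 0.51 and 0.43, and ATP5D, the delta subunit of the synthase, by 0.42. COX8A, of complex IV, and the isoform COX4I2 were lower in BE2C by 0.40 and 0.25, with adjusted p of up to 0.169 and 0.148 without single arrays. NDUFS5, an accessory subunit of complex I, was 0.42 ± 0.08 higher in Kelly but 0.91 ± 0.08 lower in BE2C. UQCRH and its near copy UQCRHL were lower in BE2C by 0.81 ± 0.06 and 1.004 ± 0.06. ATP5L and COX6C, which led the changes with CYC065, were higher in BE2C than in SHSY5Y by 0.97 ± 0.09 and 0.76 ± 0.09 and differed between Kelly and SKNAS by -0.08 ± 0.09 and 0.09 ± 0.09.

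**Figure D5:**
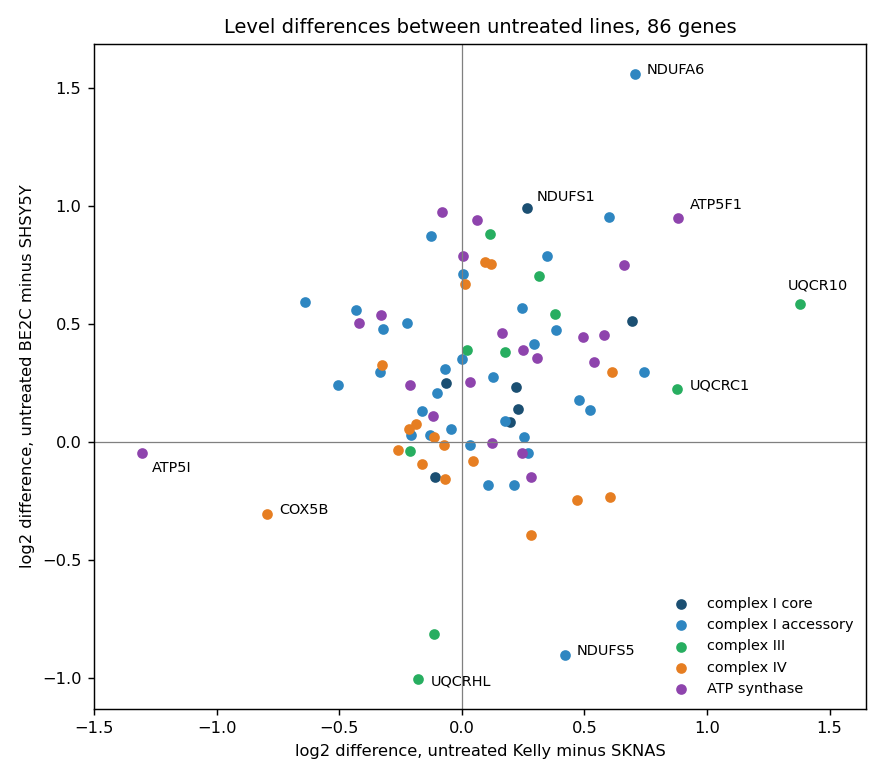
Log2 difference in level of the 86 genes between untreated Kelly and SKNAS (horizontal axis) and between untreated BE2C and SHSY5Y (vertical axis), coloured by complex. The upper right quadrant holds UQCR10 (1.38 and 0.58) and NDUFA6 (0.70 and 1.56), while ATP5I (-1.30) lies far left and UQCRHL (-1.004) far down.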

How the data were processed

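RNA from 24 cell line arrays was analysed, and the 10 mouse tumor arrays were not used here. The deposited values are log2 summaries per array row. Per the submitters' processing notes the tools were RMA, affy and limma, without versions or roles. The authors' deposited table gives log2 fold changes, mean log2 levels, p-values and adjusted p-values for BE2C and SHSY5Y per symbol, but the array rows carry no symbols. A symbol was given to a row, or to the mean of 2 rows, when its mean change and level in BE2C and SHSY5Y were those of the table to 1e-07. Single rows matched 26584 of the 33720 symbols and means of 2 rows 6219, together 97.3%. After the SHSY5Y part was exchanged among symbols as a control, 0 matched 1 row and 0 of 2000 searched matched 2 rows.

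Group means were fitted with limma 3.58.1 in R 4.3.3. The threshold was an adjusted p of 0.05 (Benjamini-Hochberg over 32803 genes) with no minimum fold. Each line was fitted on its 6 arrays, the average and differences between lines on all 24, and untreated levels on 12. Values after ± are moderated SEs for changes and SDs for levels. The members and lists were chosen with earlier results of these data known. Named genes are the called members, with the 6 largest changes where over 12 were called, a set of subunits of each complex, the isoforms, members apart in all 4 lines, and pathway genes called in 2 or more lines. Fits were tested on simulated data with known changes. Of 1.25-fold changes 36% were recovered in Kelly, 20% in SKNAS, 24% in BE2C and 10% in SHSY5Y, and 90% on the average. Of 2-fold changes 88%, 92%, 86% and 88% were recovered in the same order of lines. A small change not called in a single line may thus have been missed. RMA usually brings arrays to a common distribution, which can hide a change of all RNA alike. The number of arrays and the signal over background limit the precision. Alternatives were median centring, quantile normalisation, a minimum mean level of 5, the mean or the dimmer of 2 rows, a variance trend, array weights, a shared spread, a replicate block and leaving out each array, line or deposit. Human gene coordinates other than promoter windows were not used here. Same-numbered arrays of 2 groups did not deviate together, so numbers were not taken as pairs.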

Additional observations from a re-analysis of the deposited data

Results flagged for a closer look

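The CYC065 change of COX7C in Kelly minus that in SKNAS was 0.30 (limma adjusted p = 0.0397), and that of NDUFA4 was 0.25 (limma adjusted p = 0.0372), each a tested difference between lines. Over all genes 3.89% were called in this comparison. Neither difference held after median centring (limma adjusted p = 0.270 and 0.288), and the F test over the lines called no member. The other values are pairs of lines whose arrays moved in opposite directions without overlap, and these differences were not tested. They were found by looking through all members and all pairs of lines. The share of all genes with such a pair was not counted, so nothing can be concluded from their number. For COX7C the change in SKNAS minus that in SHSY5Y was -0.28. For NDUFA4 the change in SKNAS was -0.17 relative to BE2C and -0.17 relative to SHSY5Y. For ATP5B, the catalytic beta subunit of the synthase, the change in Kelly minus that in BE2C was 0.16, with 11.67, 11.62 and 11.67 on CYC065 and 11.59, 11.54 and 11.61 on untreated Kelly arrays, and 11.50, 11.46 and 11.46 on CYC065 and 11.50, 11.58 and 11.59 on untreated BE2C arrays.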

How the results depend on the processing

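The median changes of the 86 genes kept their sign under every setting run, and no CYC065 change called for a member turned its sign. The Kelly count of 26 was 10 with median centring, 44 with quantile normalisation and 10 to 17 without single arrays. The SKNAS count of 2 was 5 with quantile normalisation, 10 with dim genes left out, 10 with a variance trend, 15 with a spread shared over all 24 arrays and 0 to 2 without single arrays. The BE2C count of 0 was 4 with dim genes left out, 4 with a variance trend and 2 with a shared spread. The SHSY5Y count of 1 was 3 with quantile normalisation, 3 with dim genes left out, 2 with a variance trend, 9 with array weights, 0 with the dimmer of 2 rows, 10 with a shared spread and 0 in the authors' deposited table. The count of 42 on the average was 10 with the later deposit alone. The count of 0 for any difference between lines was 3 with dim genes left out, 3 with array weights and 1 with the dimmer row. The Kelly minus SKNAS count of 2 was 0 with median centring, 1 with quantile normalisation, 4 with array weights, 0 with the replicate block and 0 to 3 without single arrays. With the replicate block the untreated counts were 51 for Kelly minus SKNAS and 58 for BE2C minus SHSY5Y, and BE2C minus SHSY5Y in the CYC065 change kept 0. Correlations of same-numbered arrays were between -0.22 and 0.10. No paired analysis was possible because CYC065 and untreated arrays of a line share no replicate numbers. With dim genes left out fewer genes were tested, and the cause of the other shifts was not tested. The share of all genes called is not given here for these settings. The counts therefore do not show whether members stood out from other genes under each setting.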
